A study of Mus musculus with 6 samples.

Results

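The interleukin-1 (IL-1) family genes Il1b, Il1rn, Il33, Il1r1, Il1rap and Irak3 were followed through control and hypothyroid mouse muscle. They were taken by gene symbol and are 6 of the 12436 genes listed in the deposited expression values, all 6 present in every library's table. The samples were 6 single-cell RNA-seq libraries of the tibialis anterior (TA), a muscle of the lower leg, 1 library for each of 2 diets at day 0 (non-injured, NI) and at 5 and 14 days post injury (dpi). Hypothyroid mice ate a low-iodine diet with 0.15% propylthiouracil, a drug that blocks thyroid hormone synthesis, and control mice ate the matched control diet. The diets began 3 weeks before the right TA was injured with cardiotoxin at 50 μg/ml, a snake venom toxin that kills muscle fibres. Each library pooled cells of 3 male mice, 3 to 5 months old. All groups, controls included, carried the same Fucci cell-cycle reporter at the ROSA26 locus, and by the study's methods the mice used for transcriptomics lacked Cre, so that the reporter was not recombined. Each diet and day was 1 library, so the diets could not be tested against each other on any given day, and a diet effect taken as equal on all 3 days was not tested. Values are given with 95% intervals that cover counting error only, and not the spread between mice or the clumping of UMIs in few cells.

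The IL-1 family holds secreted signals that alert tissue to damage. Il1b encodes IL-1 beta, a ligand made mainly by myeloid cells that is cleaved before release. Il33 encodes IL-33, an alarmin kept in the nuclei of stromal and barrier cells and released when they are damaged. Il1r1 encodes the receptor for IL-1 and Il1rap the accessory chain that both the IL-1 and the IL-33 receptors need to signal. Il1rn encodes the IL-1 receptor antagonist, which occupies Il1r1 without signalling, and Irak3 encodes a kinase-like protein that restrains signalling below these receptors. In injured muscle, IL-33 from fibro/adipogenic progenitors (FAPs), the mesenchymal cells between fibres, is known for supporting regulatory T cells.

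The 6 genes lie on 5 chromosomes of the mm39 build: Il1b at chr2:129206490-129213059, Il1rn at chr2:24226865-24241506, Il33 at chr19:29902514-29938118, Il1r1 at chr1:40264240-40356417, Il1rap at chr16:26400454-26548867 and Irak3 at chr10:119977553-120038035. The 250 bases before the RefSeq start of Il1b, Il1rn and Il33 are printed here because the comparisons of cell types, diets and days turn on this ligand, antagonist and alarmin. They were read from RefSeq promoter windows of GRCm38.p6 and placed by exact match on GRCm39, 5′ to 3′ on each gene's own strand, at chr2:129213060-129213309 on the minus strand for Il1b, chr2:24226622-24226871 on the plus strand for Il1rn and chr19:29902263-29902512 on the plus strand for Il33. Where RefSeq gave several windows, 3 for Il1rn and 2 for Il33, the one nearest the canonical transcript's start was taken. The window of Irak3 lies inside the gene's span given above and is not printed. Capitals mark matches, on either strand, to TTNNGNAA (C/EBP), TGANTCA (AP-1) or AGGTCA (the half-site of thyroid hormone receptors).
Il1b: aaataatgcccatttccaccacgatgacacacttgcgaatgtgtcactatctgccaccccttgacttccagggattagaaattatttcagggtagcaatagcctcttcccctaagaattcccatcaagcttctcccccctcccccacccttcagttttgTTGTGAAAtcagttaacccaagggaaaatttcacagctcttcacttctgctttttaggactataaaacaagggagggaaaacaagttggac
Il1rn: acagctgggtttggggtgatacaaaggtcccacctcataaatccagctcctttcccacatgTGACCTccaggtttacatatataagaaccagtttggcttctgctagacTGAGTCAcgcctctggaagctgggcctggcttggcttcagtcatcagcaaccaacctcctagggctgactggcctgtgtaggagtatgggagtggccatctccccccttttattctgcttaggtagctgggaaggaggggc
Il33: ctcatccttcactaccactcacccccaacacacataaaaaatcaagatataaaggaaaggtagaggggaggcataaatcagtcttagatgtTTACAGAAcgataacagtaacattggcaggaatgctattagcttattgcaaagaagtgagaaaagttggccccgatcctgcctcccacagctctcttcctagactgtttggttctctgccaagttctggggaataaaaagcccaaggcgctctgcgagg
The Il1b window held a C/EBP match, TTGTGAAA, and the Il33 window held another on the minus strand, printed as TTACAGAA. The Il1rn window held an AP-1 match, TGAGTCA, and a thyroid half-site on the minus strand, printed as TGACCT, and the Irak3 window also held that match. Among 32851 RefSeq windows of the same length, 36.8% held the C/EBP letters, 6.75% those of AP-1 and 14.0% the half-site. The core of the PU.1 motif, GAGGAA, was in 23.3% of windows and in 0 of the 6 genes' windows, and an NF-kappaB match, found in 7.25% of windows, was seen only in that of Il1r1. These matches are descriptions of letters in a window, and no binding was measured.

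The 6 libraries held 528 to 3294 cells and 2283944 to 23497518 unique molecular identifiers (UMIs, each standing for 1 captured RNA molecule). Only the first run of cell columns of each file was used, 11207 of 20269 cells. The other 9062 came after the alphabetical order of barcodes began again, and 1680 cells had the same values in files of different conditions. The values offer no check that these first runs match the labelled condition, and 12 barcodes were shared between first runs of different libraries. Cells were assigned to types by marker genes. Pdgfra, Dcn and collagen genes gave FAP-like cells, which numbered 790 and 237 in the control and hypothyroid NI muscle, 416 and 851 at 5 dpi and 1613 and 888 at 14 dpi. Myeloid cells were split by the complement genes C1qa, C1qb and C1qc and by MHC class II genes. C1q-high macrophage-like cells numbered 102 in control and 524 in hypothyroid muscle at 5 dpi and 63 and 128 at 14 dpi, with 0 in both NI libraries. C1q-low MHC II-high cells numbered 393 and 178 at 5 dpi and 28 and 9 at 14 dpi. The second group is called by its genes because its markers changed with day. At 5 dpi its dendritic cell markers summed to 1669 and 1216 CPM (UMIs of the genes scaled to a common library total), of which Ccr7 was 939 and 826.5 CPM. Its monocyte and macrophage markers then summed to 909 and 1149 CPM, with 1 of them, Lyz2, at 424 and 714 CPM. At 14 dpi the monocyte and macrophage markers summed to 4674 and 4385 CPM, with Lyz2 at 4183 and 3908 CPM. The dendritic markers were then at 542 and 1356 CPM.

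The 2 secreted signals came from different cells. Il1b RNA was concentrated in myeloid cells and Il33 RNA in FAP-like cells. Over the whole library, Il1b was 18.4 CPM in control and 13.1 in hypothyroid NI muscle, 560 and 346 at 5 dpi and 24.2 and 126 at 14 dpi. At 5 dpi, C1q-low MHC II-high cells held 83.3% of all Il1b UMIs in control muscle and 61.9% in hypothyroid muscle, and C1q-high cells held 2.3% and 27.2%. At 14 dpi the shares of C1q-high cells were 11.8% and 64.6%. Il33 lay in FAP-like cells by 78.0% to 96.5% of its UMIs in every library, and Il1r1 by 70.4% to 91.7%. Irak3 lay there by 69.4% to 95.5% and Il1rap, the least abundant of the 4, by 38.6% to 80.2%. FAP-like cells were 17.1% to 68.6% of the cells of a library.

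**Figure D1:**
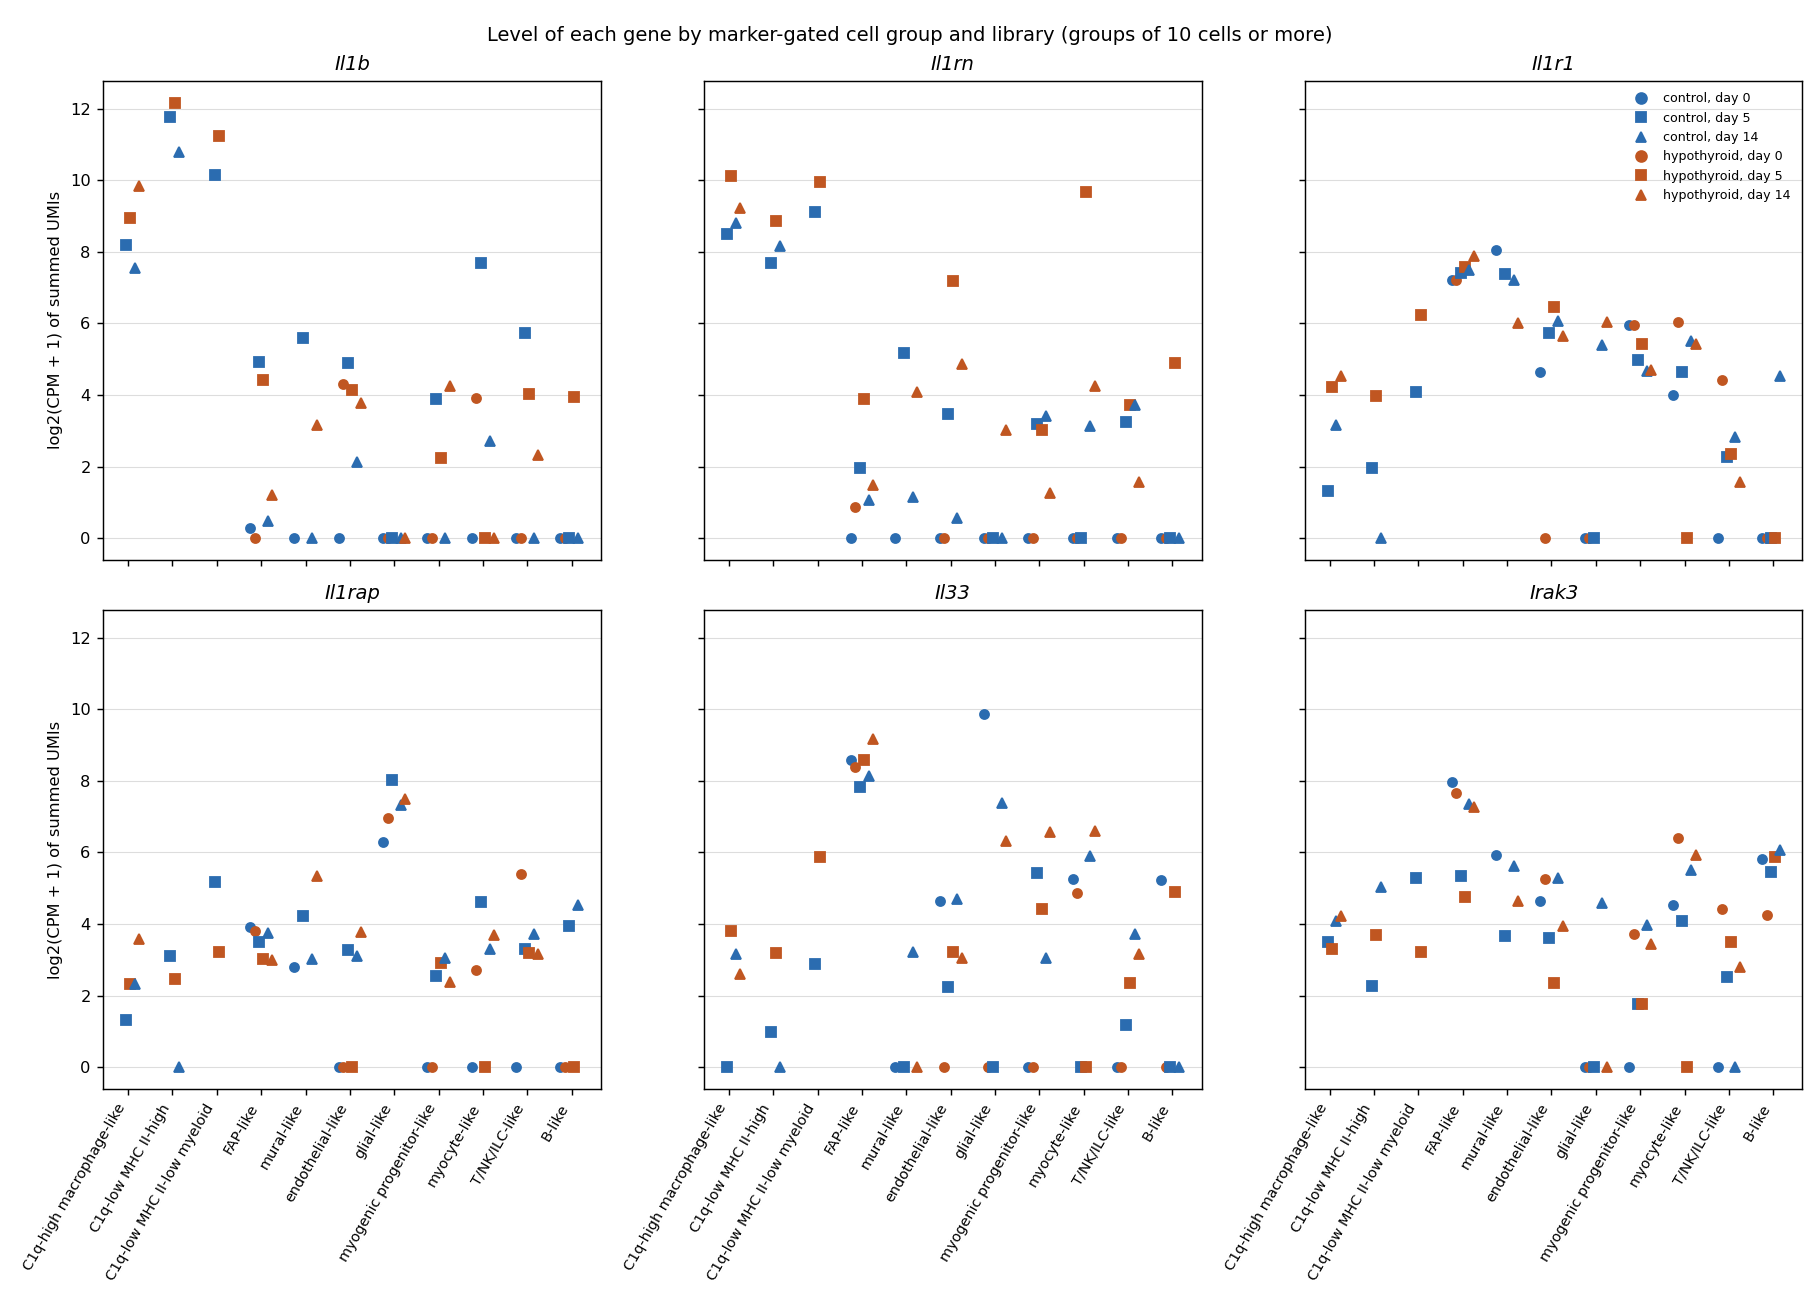
Level of the 6 genes in each marker-gated cell type, as log2(CPM + 1) of the summed UMIs of the cells, with 1 point per library of at least 10 such cells. Colours stand for diet and marker shapes for day. Il1b stands highest in the myeloid groups, as does Il1rn but for a myocyte-like point at 5 dpi that is 1 cell, and Il33 stands high in FAP-like cells, at 226 to 571 CPM, beside a glial-like point of 928 CPM that is 3 cells.

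Within C1q-low MHC II-high cells, Il1b stood at 3463 CPM [3384, 3544] in control muscle at 5 dpi, in 251 of 393 cells, and at 4589 CPM [4463, 4717] in hypothyroid muscle, in 118 of 178 cells. The hypothyroid level was 1.32 times the control level [1.28, 1.37]. With every cell thinned to 1000 UMIs, Il1b was detected in 54.4% and 58.8% of these cells. At 14 dpi the levels were 1764 CPM in 12 of 28 control cells and 2084 CPM in 2 of 9 hypothyroid cells, so the latter value is that of 2 cells. In NI muscle 93 Il1b UMIs came from 1 control cell. At 5 dpi this group had the highest Il1b level of any cell group in both diets.

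C1q-high macrophage-like cells had less Il1b per cell, and the order of days differed between diets. Il1b was 290 CPM [251, 334] in control and 492 CPM [472, 513] in hypothyroid muscle at 5 dpi, and 187 CPM [138, 249] and 910 CPM [856, 966] at 14 dpi. The hypothyroid level was 1.70 times the control level at 5 dpi [1.47, 1.97] and 4.86 times at 14 dpi [3.63, 6.65]. The control library at 14 dpi rests on 47 UMIs in 10 of 63 cells, of which 1 cell gave 51.1%, and without the top cell of each library the ratio at 14 dpi was 8.73. With all cell columns of each file in place of the first runs it was 1.30. In thinned cells Il1b was detected in 14.4%, 20.2%, 8.20% and 20.3% of C1q-high cells in control and hypothyroid muscle at 5 and at 14 dpi.

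The smaller C1q-low MHC II-low myeloid group had 1135 CPM of Il1b in 79 control cells, detected in 36 of them, and 2431 CPM in 19 hypothyroid cells at 5 dpi, where it was detected in 7 and 179 of 294 UMIs were in 1 cell. T, NK and innate lymphoid-like cells and FAP-like cells had 51.6 and 29.6 CPM in the control and 15.4 and 20.4 CPM in the hypothyroid library at 5 dpi. Of the 164 UMIs in the control lymphoid group, 71 were in 1 cell. In FAP-like cells 67 of 175 control and 98 of 254 hypothyroid UMIs were in 1 cell, and Il1b was detected in 12 of 416 and 37 of 851 cells. The source of these UMIs was not tested. Of 23 Il1b UMIs in control endothelial-like cells at 5 dpi, 22 were in 1 cell, and the 26 in myocyte-like cells of that library were also in 1 cell. Cells without a gate had 592 and 287 CPM at 5 dpi.

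The antagonist was spread differently over the myeloid cells. Il1rn was 364 CPM [320, 412] in control C1q-high cells at 5 dpi and 1102 CPM [1072, 1133] in hypothyroid ones, a ratio of 3.03 [2.67, 3.46]. It was detected in 42 of 102 and 399 of 524 cells, or in 26.8% and 48.6% after thinning. At 14 dpi the levels were 446 CPM [368, 537] and 595 CPM [551, 640], a ratio of 1.33 [1.09, 1.64]. Hypothyroid muscle at 5 dpi thus had the highest Il1rn level of the 4 C1q-high pools. With all cell columns the ratio was 2.29 at 5 dpi and 0.926 at 14 dpi.

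C1q-low MHC II-high cells had 204 CPM of Il1rn [185, 224] in control and 460 CPM [421, 502] in hypothyroid muscle at 5 dpi, a ratio of 2.26 [1.98, 2.57]. At 14 dpi they had 284 CPM in 12 of 28 cells and 670 CPM in 2 of 9 cells. The C1q-high cells held 81.2% of all Il1rn UMIs of the hypothyroid library at 5 dpi against 25.5% in the control library. The MHC II-low group had 550 and 992 CPM at 5 dpi. FAP-like cells had 2.87 and 13.9 CPM at 5 dpi, beside 8.50 and 12.3 CPM in T, NK and innate lymphoid-like cells. In endothelial-like cells of hypothyroid muscle, 35 Il1rn UMIs at 5 dpi lay in 1 of 32 cells and 31 UMIs at 14 dpi in 5 of 222 cells. Those cells also held the myeloid genes Lyz2, at 1369 and 1138 CPM, and Cd74, at 1208 and 5030 CPM, against 23.2 to 84.9 CPM of either gene in the other endothelial-like cells. Myogenic progenitor-like cells of hypothyroid muscle had 7.13 CPM at 5 dpi. The 10 Il1rn UMIs of myocyte-like cells at 5 dpi were in 1 of 10 hypothyroid cells.

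**Figure D2:**
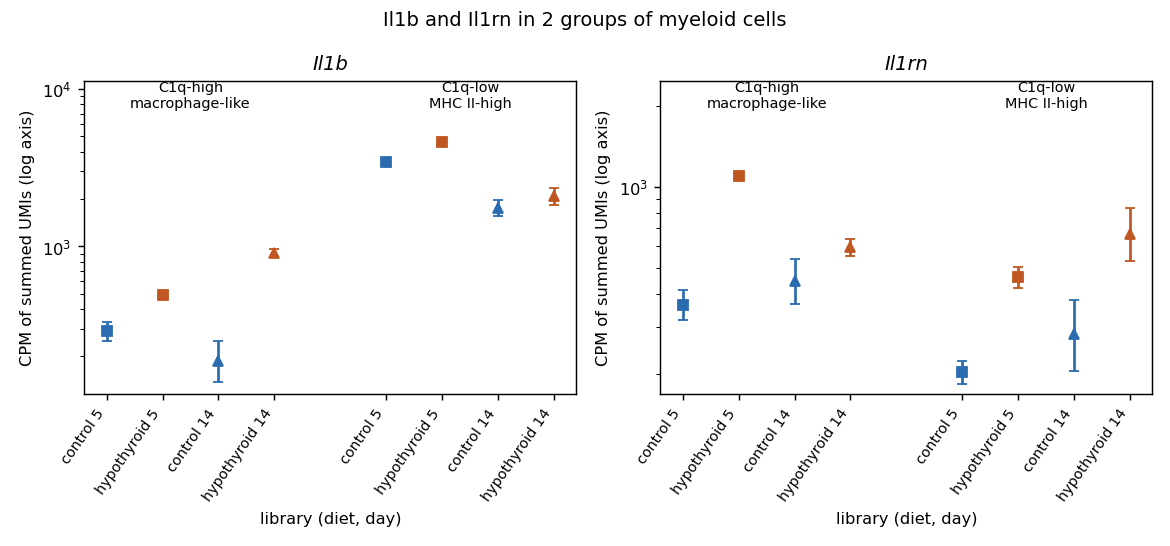
Il1b and Il1rn in CPM in the myeloid groups at 5 and 14 dpi, by diet, with exact 95% Poisson intervals for counting error. In C1q-high cells, Il1rn peaks in hypothyroid muscle at 5 dpi at 1102 CPM and Il1b in hypothyroid muscle at 14 dpi at 910 CPM.

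The ratio of Il1rn to Il1b UMIs sets the antagonist against the agonist within the same cells. UMIs are read from the 3′ end and count molecules, but genes can be captured unequally, so the ratio is compared between pools and not against 1. In C1q-high cells it was 1.25 [1.04, 1.52] in control and 2.24 [2.13, 2.36] in hypothyroid muscle at 5 dpi. At 14 dpi it was 2.38 [1.68, 3.43] in control and 0.654 [0.593, 0.720] in hypothyroid muscle. The order of the diets at 14 dpi was thus the opposite of that at 5 dpi. With all cell columns the control value at 14 dpi was 0.921, and with the top cell of each gene left out it was 3.83. In C1q-low MHC II-high cells the ratio was 0.0589 and 0.10 at 5 dpi and 0.161 and 0.321 at 14 dpi for control and hypothyroid muscle.

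At the level of single cells thinned to 1000 UMIs, most C1q-high cells with either gene held Il1rn alone. In hypothyroid muscle at 5 dpi, 198 of 500 cells had Il1rn only, 56 had Il1b only and 45 had both. In control muscle at that day 21 of 97 cells had Il1rn only, 9 had Il1b only and 5 had both. At 14 dpi, 29 of 123 hypothyroid cells had Il1rn only, 10 Il1b only and 15 both, and in control muscle 13, 3 and 2 of 61 cells. The C1q-low MHC II-high cells were the reverse: 181 of 386 control cells and 70 of 160 hypothyroid cells at 5 dpi had Il1b only, 24 and 10 had Il1rn only, and 29 and 24 had both.

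**Figure D3:**
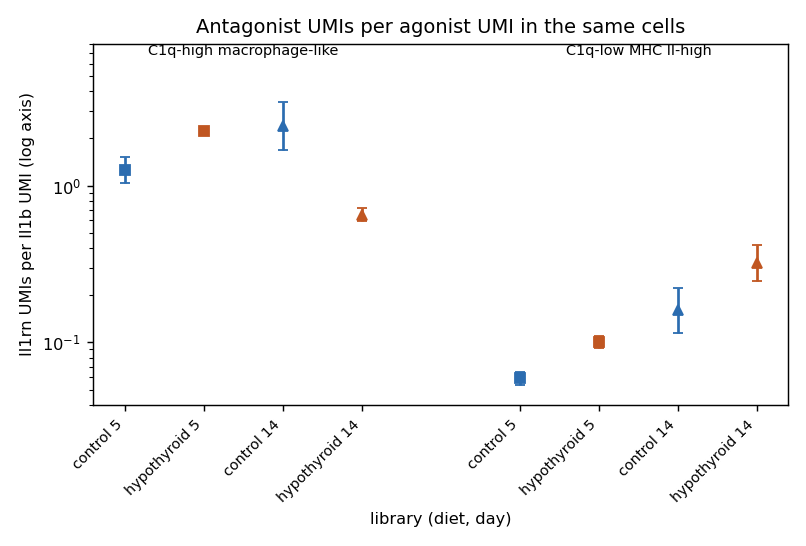
Il1rn UMIs per Il1b UMI in C1q-high and C1q-low MHC II-high cells by diet and day, on a log axis, with exact 95% intervals for counting error. The C1q-high pools lie at 0.654 to 2.38 and the C1q-low MHC II-high pools at 0.0589 to 0.321, where 0.321 rests on 9 cells.

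Il33 in FAP-like cells was lower at 5 dpi than in NI muscle on the control diet and not on the hypothyroid diet. In control muscle it was 381 CPM [364, 400] in NI muscle, 226 CPM [214, 239] at 5 dpi and 282 CPM [271, 292] at 14 dpi. In hypothyroid muscle it was 337 CPM [305, 371], 384 CPM [373, 395] and 571 CPM [555, 587]. From NI to 5 dpi the ratio was 0.593 [0.552, 0.637] in control and 1.14 [1.03, 1.26] in hypothyroid muscle. Hypothyroid over control was 0.884 [0.792, 0.984] in NI muscle, 1.70 [1.60, 1.80] at 5 dpi and 2.03 [1.93, 2.12] at 14 dpi. The value in NI muscle ran from 0.527 with all cell columns and 0.732 without the top cell of each library to 1.004 with each cell weighted equally and 1.04 under a stricter cell gate. After thinning, Il33 was detected in 13.2%, 11.5% and 11.7% of control and 16.7%, 18.5% and 21.3% of hypothyroid FAP-like cells from NI to 14 dpi.

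A median gene of FAP-like cells differed between diets too, by 0.00 on the log2 scale in NI muscle, -0.33 at 5 dpi and -0.14 at 14 dpi. Depth and the level of FAP markers also moved with diet. Median UMIs per FAP-like cell were 12660 and 13710 at 5 dpi but 5949 and 9322 at 14 dpi, and the summed FAP markers were 44570 and 32280 CPM at 5 dpi and 47470 and 36110 CPM at 14 dpi. The monocyte and macrophage markers in these cells summed to 54.3 and 131 CPM at 5 dpi and 32.9 and 60.8 CPM at 14 dpi. Their part in the difference of Il33 was not tested.

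The receptor of IL-33, Il1rl1 (also called ST2), was measured in the same cells. In FAP-like cells Il1rl1 was 28.9 CPM in control and 2.44 CPM in hypothyroid NI muscle, 726 and 1165 CPM at 5 dpi and 666 and 1151 CPM at 14 dpi. Hypothyroid over control was 1.60 [1.55, 1.66] at 5 dpi and 1.73 [1.68, 1.78] at 14 dpi, and FAP-like cells held 91.5% to 94.7% of all Il1rl1 UMIs in the injured libraries. In hypothyroid NI muscle 3 of 33 Il1rl1 UMIs were in FAP-like cells and 30 in T, NK and innate lymphoid-like cells. Counts at the 3′ end do not separate the membrane receptor from its secreted form. In thinned FAP-like cells with Il33, Il1rl1 was detected in 34.0% and 51.7% at 5 dpi and in 22.0% and 35.5% at 14 dpi for control and hypothyroid muscle. In those without Il33 it was detected in 18.5% and 27.6% and in 14.9% and 22.5%. Cells with Il33 thus had Il1rl1 more often in all 4 injured libraries.

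Il1r1, the IL-1 receptor, varied little beside the other genes of FAP-like cells. It was 146 CPM in control and 149 CPM in hypothyroid NI muscle, 170 and 191 CPM at 5 dpi and 179 and 237 CPM at 14 dpi. Hypothyroid over control was 1.02 [0.860, 1.20], 1.12 [1.04, 1.21] and 1.32 [1.24, 1.41]. The value at 5 dpi was 0.956 with all cell columns and 1.03 in thinned cells. Il1rap was 14.0 and 13 CPM, 10.3 and 7.15 CPM, and 12.51 and 6.93 CPM, with hypothyroid over control at 0.693 [0.495, 0.977] at 5 dpi and 0.554 [0.399, 0.762] at 14 dpi. The latter rests on 58 and 127 UMIs and was 0.843 with each cell weighted equally.

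Irak3, the brake below the receptors, had the widest range over time of the 4 genes carried by FAP-like cells. It was 249 CPM in control and 202 CPM in hypothyroid NI muscle, 39.6 and 26.3 CPM at 5 dpi and 162 and 153 CPM at 14 dpi. From NI to 5 dpi the ratio was 0.159 [0.138, 0.183] in control and 0.130 [0.1098, 0.154] in hypothyroid muscle, and from 5 to 14 dpi it was 4.09 [3.56, 4.71] and 5.82 [5.15, 6.59]. In both diets the level was thus lowest at 5 dpi. Hypothyroid over control was 0.813 [0.706, 0.934] in NI muscle, 0.664 [0.560, 0.789] at 5 dpi and 0.945 [0.878, 1.02] at 14 dpi. After thinning, Irak3 was detected in 17.8%, 4.65% and 11.4% of control and 15.02%, 3.18% and 11.6% of hypothyroid FAP-like cells. With all cell columns the ratio of 5 dpi to NI was 0.540 in control and 0.305 in hypothyroid muscle, that of 14 to 5 dpi was 1.65 and 4.16, and hypothyroid over control at 5 dpi was 0.349. In thinned cells the ratio of 14 to 5 dpi was 2.61 and 4.04.

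**Figure D4:**
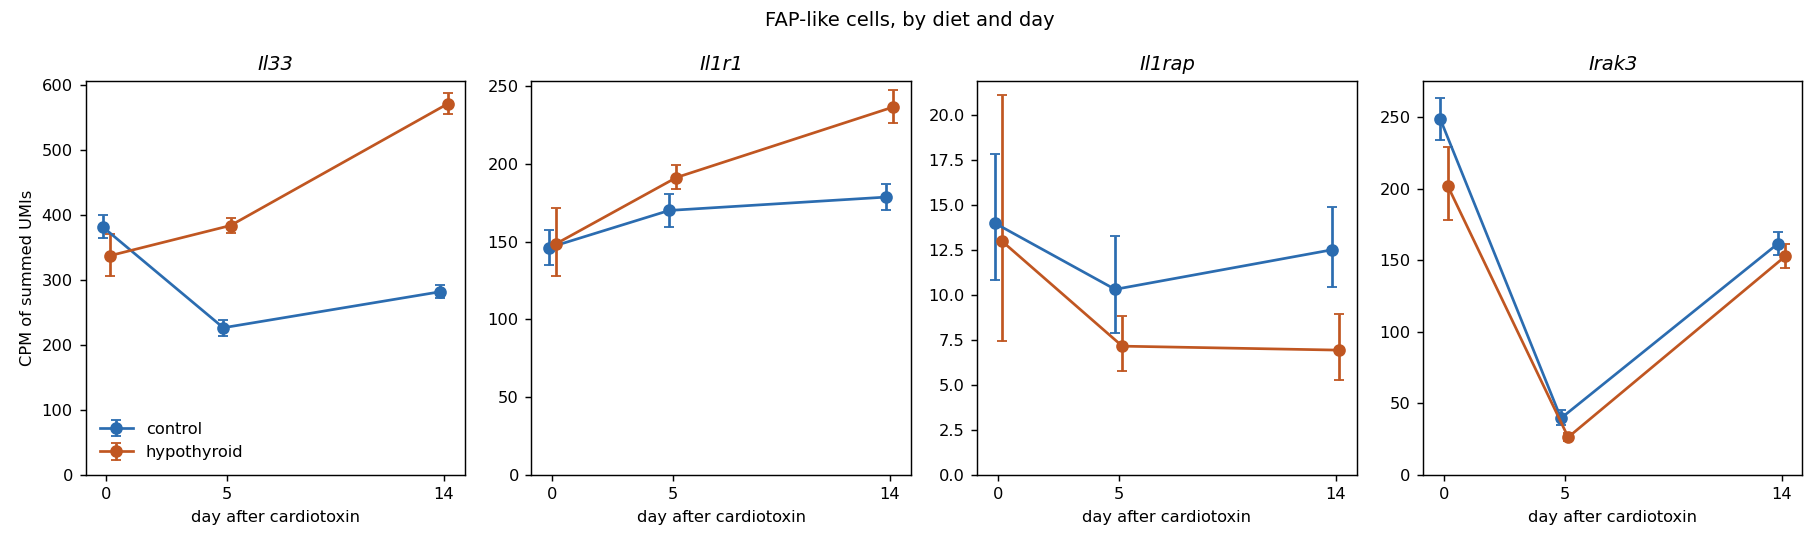
Il33, Il1r1, Il1rap and Irak3 in FAP-like cells against days after injury, in CPM, with exact 95% Poisson intervals and 1 line per diet. Irak3 is lowest at 39.6 and 26.3 CPM at 5 dpi in control and hypothyroid muscle, while Il33 is 226 and 384 CPM at that day.

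FAP-like cells were then split by a UMI of Pi16, a marker of universal fibroblasts, and, among those without it, by a UMI of Smoc2. The split depends on depth, since deeper cells show more genes. Il33 was higher in Pi16-positive than in Smoc2-positive cells in the control libraries, at 553 against 178 CPM in NI muscle, 308 against 159 CPM at 5 dpi and 340 against 138 CPM at 14 dpi. In hypothyroid muscle the values were 377 against 286 CPM, 515 against 300 CPM and 578 against 617 CPM. The Smoc2-positive cells at 14 dpi thus had the widest gap between diets among these subsets and days, 138 against 617 CPM. Il1r1 was higher in the Smoc2-positive subset in all 6 libraries, with 187 to 320 CPM against 112 to 219 CPM. Irak3 was 303 CPM in Pi16-positive and 182 CPM in Smoc2-positive cells of control NI muscle, 61.4 and 19.5 CPM at 5 dpi and 194 and 96.5 CPM at 14 dpi. In hypothyroid muscle it was 200 and 210 CPM, 41.8 and 14.7 CPM, and 170 and 104 CPM, so that both subsets were lowest at 5 dpi.

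**Figure D5:**
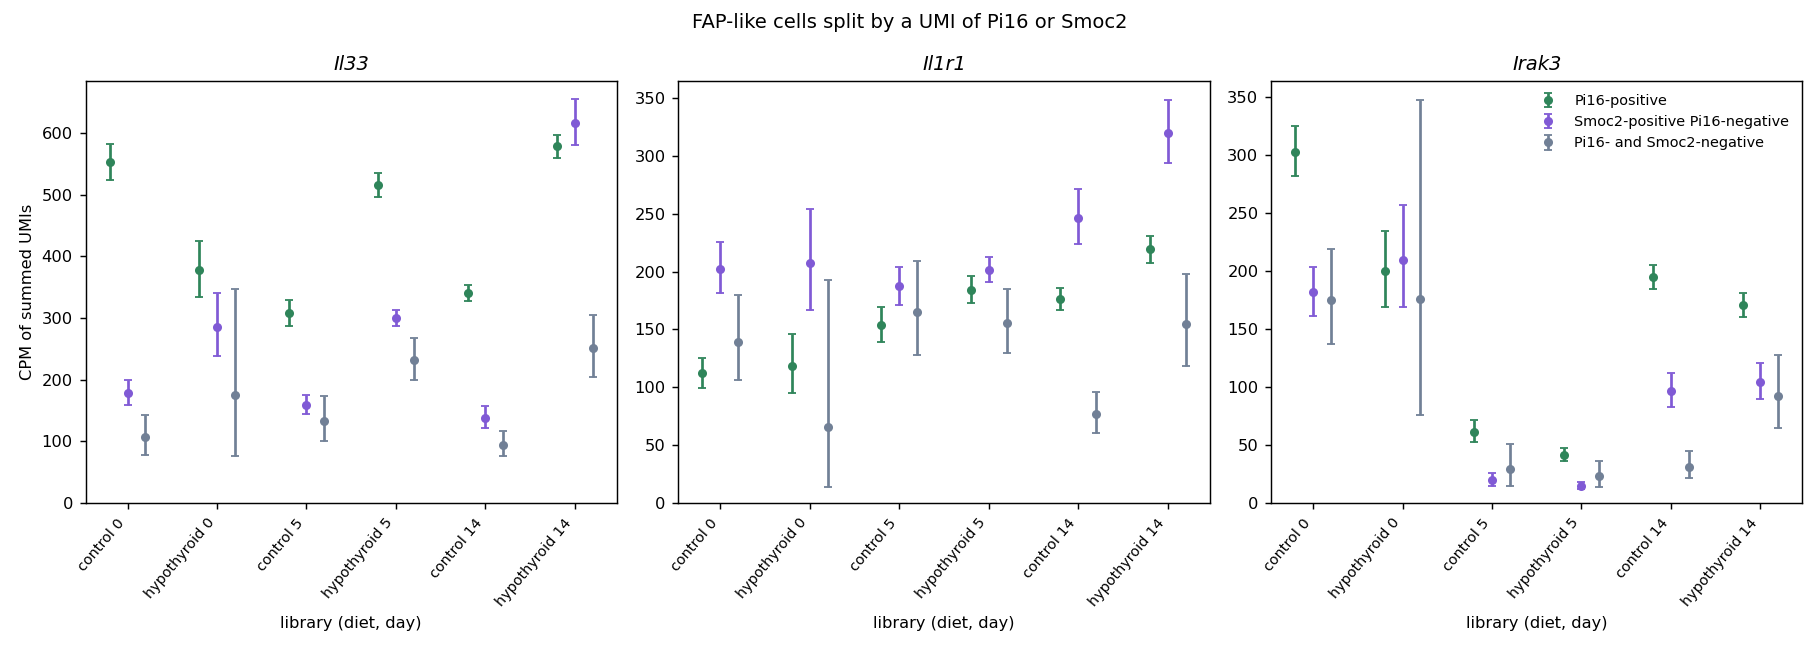
Il33, Il1r1 and Irak3 in FAP-like cells with a Pi16 UMI, with a Smoc2 but no Pi16 UMI, or with neither, in CPM by diet and day, with exact 95% Poisson intervals. Il33 in Smoc2-positive cells at 14 dpi is 138 CPM in control and 617 CPM in hypothyroid muscle.

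Outside FAP-like and myeloid cells, Il1r1 and Il1rap reached their highest levels in vessel-associated and nerve-associated cells, and other values rested on few cells. Il1r1 was 262 CPM in mural-like cells, the cells around vessels, of control NI muscle, 165 CPM at 5 dpi and 148 CPM at 14 dpi, and 63.5 CPM in hypothyroid muscle at 14 dpi. Endothelial-like cells had 52.5 and 87.2 CPM of Il1r1 at 5 dpi and 65.7 and 48.7 CPM at 14 dpi. Myogenic progenitor-like cells had 30.7 and 41.8 CPM at 5 dpi. Myocyte-like cells had 64.7 CPM from 23 UMIs in hypothyroid NI muscle and 44.2 CPM from 40 UMIs in control muscle at 14 dpi. Mural-like cells were thus the only group besides FAP-like cells above 100 CPM in control muscle at all 3 days. Il1rap was highest in glial-like cells, the cells that ensheath nerves, with 160 CPM from 35 UMIs in control and 178 CPM from 25 UMIs in hypothyroid muscle at 14 dpi, and T, NK and innate lymphoid-like cells had 8.82 and 8.19 CPM at 5 dpi. Irak3 was 37.9 CPM in control and 14.4 CPM in hypothyroid endothelial-like cells at 14 dpi. Mural-like cells of control muscle at 14 dpi had 47.8 CPM of it. Myocyte-like cells had 84.4 CPM of Irak3 from 30 UMIs in hypothyroid NI muscle and 44.2 CPM from 40 UMIs in control muscle at 14 dpi. Over all libraries pooled, myocyte-like cells held 2317 CPM of the FAP gene Dcn, beside 7829 CPM in FAP-like and 162 CPM in myogenic progenitor-like cells. Other FAP markers differed: Col1a1 was 597, 7667 and 300 CPM and Pdgfra 37.0, 224 and 5.5 CPM in the same order. Col1a2 was 569, 6029 and 729 CPM, so it was lower in myocyte-like than in myogenic progenitor-like cells. The part of FAP RNA in the Irak3 and Il1r1 of myocyte-like cells was not tested. C1q-high cells of hypothyroid muscle had 8.90 CPM of Irak3 at 5 dpi and 17.8 CPM at 14 dpi, and 22.1 CPM of Il1r1 at 14 dpi.

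Part of the Il33 outside FAP-like cells lay in few cells that also held the FAP gene Dcn. In control NI muscle, 167 Il33 UMIs of glial-like cells were in 3 of 43 cells, which had 6026 CPM of Dcn against 28.3 CPM in the other 40. Pdgfra, another FAP marker, had 0 UMIs in either set of these glial-like cells. In hypothyroid myogenic progenitor-like cells at 14 dpi, 68 Il33 UMIs were in 6 of 53 cells, which had 2006 CPM of Dcn and a median of 23380 UMIs, against 110 CPM and 11820 UMIs in the rest. At 5 dpi that group had 42.1 CPM in control muscle, with 33 of 52 UMIs in 1 cell, and 20.4 CPM in hypothyroid muscle. In control muscle at 14 dpi, 47 of 52 Il33 UMIs of endothelial-like cells and 27 of 53 of myocyte-like cells were in 1 cell each, and glial-like cells had 165 CPM, with 19 of 36 UMIs in 1 cell. C1q-high cells of hypothyroid muscle at 5 dpi held 58 Il33 UMIs, 12.9 CPM, against 0 in control ones, where 3 UMIs would be allowed. Against that floor the level was at least 2.92-fold higher, and the exact interval of the ratio began at 2.30. They also held 79 Il1r1 UMIs against 1, or 17.6 and 1.47 CPM. The summed FAP markers of these cells were 353 CPM in control, with Pdgfra and Dpt at 0, and 850 CPM in hypothyroid muscle, and Dcn was 14.7 and 123 CPM. Their part in the 2 differences was not tested. Doublets were not removed.

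The members were also counted against a 2-fold rule, over genes with at least 20 UMIs in both pools together. In FAP-like cells, hypothyroid over control, 0 of 4 members passed in NI muscle, where 3.71% of all genes were higher and 5.19% lower. At 5 dpi 1 of 6, Il1rn, was higher, at the low level given before (all genes: 3.14% higher, 10.2% lower). It rests on 17 control UMIs, 10 of them in 1 cell, and 173 hypothyroid UMIs. The monocyte and macrophage markers of these pools were 54.3 and 131 CPM, and their part was not tested. At 14 dpi 1 of 5, Il33, was higher (1.24% higher, 8.45% lower). In C1q-high cells 3 of 5 were higher at 5 dpi, Il1rn, Il1r1 and Il33 (7.46% higher, 11.0% lower), and 2 of 4 at 14 dpi, Il1b and Il1r1 (13.5% higher, 5.59% lower), where Il1r1 rests on 26 and 2 UMIs and its ratio of 2.77 has an interval that spans 1 [0.694, 24.1]. In C1q-low MHC II-high cells at 5 dpi 3 of 5 were higher, Il1rn, Il1r1 and Irak3 (4.81% higher, 16.3% lower), of which Il1r1 rests on 16 and 6 UMIs and Irak3 on 13 and 8. With all cell columns Il1rn in that group was 1.35, short of 2-fold, and the share of all genes past 2-fold in either direction was 5.76% in place of 21.1%. For C1q-high cells at 14 dpi that share was 6.32% in place of 19.1%. Between days, the counts in FAP-like cells from NI to 5 dpi were Il1b higher and Irak3 lower of 5 in control muscle (19.8% higher, 12.7% lower) and Il1b and Il1rn higher and Irak3 lower of 6 in hypothyroid muscle (18.0% higher, 21.2% lower), with the Il1b UMIs in few cells as given before. From 5 to 14 dpi, Irak3 was higher and Il1b and Il1rn lower of 6 in control (10.3% higher, 14.2% lower) and in hypothyroid muscle (12.0% higher, 14.8% lower). From NI to 14 dpi 0 of 4 passed in control (8.5% higher, 4.3% lower) and 0 of 4 in hypothyroid muscle (11.5% higher, 16.4% lower). In C1q-high cells from 5 to 14 dpi, 0 of 2 passed in control muscle (7.98% higher, 15.8% lower), and Il1rap and Irak3 were higher and Il33 lower of 6 in hypothyroid muscle (11.4% higher, 4.91% lower), with 6 to 58 UMIs of each in a pool. In C1q-low MHC II-high cells of control muscle 0 of 2 passed (8.1% higher, 30.2% lower). Since 6 genes chosen with results known are too few to stand for a pathway, these counts are a description.

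Other ligands of the family were scarce. Il1a, the second IL-1 ligand, was 30.9 and 45.6 CPM in C1q-high cells at 5 dpi and 7.97 and 107 CPM at 14 dpi for control and hypothyroid muscle. The value of 7.97 CPM is 2 UMIs. Il18, an interferon-gamma-inducing cytokine, was 28.4, 12.2 and 25.8 CPM in control FAP-like cells and 17.1, 10.6 and 10.8 CPM in hypothyroid ones from NI to 14 dpi. In C1q-low MHC II-high cells at 5 dpi, Il36g was 15.4 and 5.47 CPM, Il1a 4.33 and 10.0 CPM and Il18 9.14 and 26.4 CPM, all on fewer than 40 UMIs a pool.

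Of the receptor chains, Il1rl2, the IL-36 receptor, was 38.4, 29.4 and 62.8 CPM in control and 28.4, 31.3 and 63.8 CPM in hypothyroid FAP-like cells. The IL-18 receptor chains Il18r1 and Il18rap were 8.96 and 10.8 CPM in control and 22.8 and 20.5 CPM in hypothyroid FAP-like cells at 5 dpi. Of 6 receptor chains, Il1rl1, Il18r1 and Il18rap passed 2-fold upward from NI to 5 dpi in FAP-like cells of both diets, where 19.8% of all genes in control and 18.0% in hypothyroid muscle were higher.

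Among the brakes, the decoy receptor Il1r2 was 73.1 and 41.0 CPM in C1q-low MHC II-high cells at 5 dpi. Il18bp, which binds IL-18, was 193 and 70.3 CPM in C1q-high cells at 5 dpi and 3.99 and 56.9 CPM at 14 dpi. The value of 3.99 CPM is 1 UMI. Tollip, which restrains the receptor complex, was 112 and 51.0 CPM in C1q-high cells at 5 dpi and 83.7 and 32.3 CPM at 14 dpi. Tnfaip3 (A20), Zc3h12a (Regnase-1) and Nfkbia dampen NF-kappaB signalling or its transcripts. In FAP-like cells Tnfaip3 was past 2-fold from NI to 5 dpi, with 12.9 and then 59.9 CPM in control and 15.4 and then 52.2 CPM in hypothyroid muscle. Zc3h12a was 40.9 and 66.6 CPM in NI muscle and 24.7 and 24.8 CPM at 5 dpi, and Nfkbia stayed between 537 and 673 CPM in all 6 libraries.

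Of 14 genes of receptor signalling, 0 passed 2-fold between diets in FAP-like cells at 5 dpi and 1, Tab1, was lower at 14 dpi, beside 3.14% of all genes higher and 10.2% lower at 5 dpi and 1.24% and 8.45% at 14 dpi. Its most abundant member, Nfkb1, was 508 and 484 CPM at 5 dpi and 538 and 740 CPM at 14 dpi. Tab2 was 83.5 and 66.9 CPM, and Rela 61.4 and 38.4 CPM, at 5 dpi. Of the inflammasome genes, which process IL-1 beta, 4 of 7 were higher in hypothyroid C1q-high cells at 14 dpi, beside 13.5% of all genes. These were Nlrp3, Pycard, Casp1 and Gsdmd, and the control pool held 63 cells, with 9 Pycard UMIs against 108 in hypothyroid cells. With all cell columns the share of genes past 2-fold there was smaller, as given before. At 5 dpi 0 of 7 were higher and 1, Aim2, lower, beside 7.46% and 11.0% of all genes. The list's most abundant genes were Casp4, Casp8 and Pycard. In C1q-high cells at 5 dpi they were 53.0 and 89.5, 81.0 and 66.3, and 128 and 82.1 CPM. In FAP-like cells at 5 dpi Casp4 was higher past 2-fold, at 20.5 and 49.2 CPM, and Aim2 lower.

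IL-1 response genes of stromal cells moved both ways. In FAP-like cells 4 of 18 were higher in hypothyroid muscle at 5 dpi, Cxcl1, Cxcl2, Ccl2 and Ccl7, which attract neutrophils or monocytes, and 3 were lower, Mmp3, Saa3 and Lcn2, beside 3.14% of all genes higher and 10.2% lower. At 14 dpi 6 were higher, Cxcl5, Ccl7, Ptges, Mmp3, Lif and Lcn2, and Saa3 was lower, beside 1.24% and 8.45% of all genes. The median of the 18 was 0.15 on the log2 scale at 5 dpi and 0.79 at 14 dpi, beside -0.33 and -0.14 over all genes. Ccl2 was 9817 and 4617 CPM in NI muscle, 3994 and 15470 CPM at 5 dpi and 8682 and 16950 CPM at 14 dpi for control and hypothyroid FAP-like cells. Cxcl1 was 7509 and 7427, 3315 and 8732, and 7064 and 12020 CPM in the same order, and Ccl7 was 3246 and 2826, 1706 and 4441, and 3458 and 7400 CPM. All 3 were thus lower at 5 dpi than in NI muscle on the control diet, as Il33 was, and higher on the hypothyroid diet. The list as a whole did not share this: from NI to 5 dpi in control muscle 7 of 18 were higher, Cxcl5, Mmp3, Vcam1, Lif, Csf3, Saa3 and Lcn2, and 4 lower past 2-fold, with a median of 0.54 on the log2 scale.

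The genes most alike in pattern were found by Pearson's r of log2(CPM + 1) over 44 pools of cell type and library, among 12312 genes. Pools of 1 library share its depth and pools of 1 cell type share its markers, so r is a description. For Il1b they were Clec4n at 0.914, Clec7a at 0.900 and Bcl2a1a at 0.894, of which Clec7a was also among the genes of the myeloid gate. For Il1rn they were Clec12a at 0.868, Lilrb4b at 0.852 and Nlrp3 at 0.847. For Il33 they were Mfap5 at 0.852, Has2 at 0.822 and Has2os at 0.820, the last of which is antisense to Has2. For Il1r1 they were Aspn and Igfbp4, both at 0.897, and Pcolce at 0.870, and for Irak3 Ebf1 at 0.703, Fam167a at 0.686 and Lvrn at 0.644. Il1rap had the lowest top value but for Irak3, with Snx16 at 0.738, Shc4 at 0.717 and Trappc9 at 0.716.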

How the data were processed

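The authors deposited log2(CPM + 1) values per cell, made per the labels and the study's methods with Partek Flow and its Cell Ranger aligner on mm39 from 10x 3′ libraries, after filters on UMIs, genes and mitochondrial share. UMIs were recovered by taking each cell's most frequent value above 0 as 1 UMI, which gave whole numbers, within 0.1 UMI, for 99.934% of 39334018 values. Cells were gated on 14 marker lists and a 10-gene myeloid list that was added after the data were seen, with at least 3 markers detected, a score of at least 0.2 and a margin of 0.1 to the next list. Myeloid cells were divided at 200 CPM of C1q genes and 2000 CPM of MHC II genes. Of 1538 myeloid cells 29 lay within 2-fold of the C1q limit, and 37 of 721 C1q-low cells within 2-fold of the MHC II limit. Doublets were not removed. UMIs were summed per gate and library, with exact Poisson, Clopper-Pearson or binomial 95% intervals. Main ratios between diets or days needed 10 cells a pool and 20 UMIs in all, and a gene at 0 was set to 3 counts. Il1rn per Il1b and the ratios under other settings had no such limit on cells. They include the C1q-low MHC II-high pool of hypothyroid muscle at 14 dpi, which held 9 cells. Cells were also thinned to 1000 UMIs.

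The members and gene lists were chosen with earlier results of these data known. Members are named in every cell type with at least 20 UMIs in a library. Of the ligands, receptor chains and brakes with 20 UMIs, a selection is named. Other lists are named by their 3 most abundant genes and a selection of those past 2-fold. The cells and markers behind single values were chosen after the values were seen. Il36a, Il36b, Il37, Il1f10, Il1rapl1, Il36rn, Nlrc4 and Nlrp1b were not analysed here. The interval was run on simulated counts of 11313 genes for FAP-like cells of both diets at 14 dpi. Of these intervals 95.7% held the true ratio, and 93.0% of 200 changed genes and 0.486% of unchanged ones passed 2-fold. The counts were drawn as Poisson totals of a pool, as the interval assumes. Coverage near 95% was thus set by the design, and UMIs that lie in few cells were not simulated. Python 3.11.15, numpy 2.4.6, scipy 1.17.1 and pandas 2.3.3 were used.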

Additional observations from a re-analysis of the deposited data

Results flagged for a closer look

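Each of these differences between groups was seen because 2 pools moved in opposite directions, with 1 library on each side, and none was tested. Il1b in C1q-high macrophage-like cells was lower at day 14 than at day 5 in control muscle, at 0.646 times, and higher in hypothyroid muscle, at 1.85 times. The control value rests on 47 UMIs at day 14 and was 2.59 with all cell columns of each file.

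Il33 in FAP-like cells, hypothyroid over control, was 1.70 at day 5 and 2.03 at day 14 but 0.884 at day 0. From day 0 to day 5 it was 0.593 times in control and 1.14 times in hypothyroid muscle. The summed FAP markers went the other way between diets at day 5, at 44570 CPM on the control and 32280 CPM on the hypothyroid diet. At day 0 they were 49120 and 49150 CPM, and their part was not tested.

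Il33 in myogenic progenitor-like cells, hypothyroid over control, was 13.03 at day 14 and 0.484 at day 5, and from day 5 to day 14 it was 0.173 times in control and 4.66 times in hypothyroid muscle. The hypothyroid value at day 14 came from 6 of 53 cells with 2006 CPM of the FAP gene Dcn, against 110 CPM in the rest. The control value rests on 3 UMIs at day 14, so the ratio of 13.03 has a wide interval [4.27, 64.8]. At day 5 it rests on 52 UMIs, most of them in 1 cell as given before.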

How the results depend on the processing

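No analysis paired by replicate was possible because the groups compared share fewer than 2 replicate numbers, with 1 library for each diet and day. No replicate could be left out. A comparison of diets paired by day over the 3 days was not run. The values below are hypothyroid over control on the same day ("diets at"), a day over an earlier day within a diet, or Il1rn UMIs per Il1b UMI. Those listed moved beyond their counting interval or, for the percentage of genes past 2-fold, by over 1.5 times, and the cause of each move was not tested. The report gives the main values as ratios, levels or percentages. For C1q-low MHC II-high cells of hypothyroid muscle at 14 dpi, which were 9 cells, it gives levels and Il1rn per Il1b only. The ratios of Irak3 in FAP-like cells between NI muscle and 5 dpi stayed below 1 in both diets, and those of Il33 between diets at 5 and 14 dpi above 1, under every setting run. With all cell columns of each file, Il1b in C1q-high cells was 1.30 (diets at day 14), 2.59 (day 14 over 5, control, direction turned). There, Il1b in C1q-low MHC II-high cells was 1.07 (diets at day 5), 0.984 (diets at day 14), 0.639 (day 14 over 5, control), 0.588 (day 14 over 5, hypothyroid). For Il1rn in C1q-high cells the values were 2.29 (diets at day 5), 0.926 (diets at day 14, direction turned). Values of Il1rn in C1q-low MHC II-high cells were 1.35 (diets at day 5), 1.40 (diets at day 14), 2.02 (day 14 over 5, control), 2.10 (day 14 over 5, hypothyroid). Under this setting, Il33 in FAP-like cells was 0.527 (diets at day 0), 1.31 (diets at day 5), 1.42 (diets at day 14), 1.41 (day 5 over 0, hypothyroid), 1.55 (day 14 over 5, control), 1.68 (day 14 over 5, hypothyroid). There, Il1r1 in FAP-like cells was 0.858 (diets at day 0), 0.956 (diets at day 5, direction turned), 1.18 (diets at day 14), 0.944 (day 5 over 0, control, direction turned), 1.05 (day 5 over 0, hypothyroid), 1.35 (day 14 over 5, hypothyroid). For Irak3 in FAP-like cells the values were 0.619 (diets at day 0), 0.349 (diets at day 5), 0.540 (day 5 over 0, control), 0.305 (day 5 over 0, hypothyroid), 1.65 (day 14 over 5, control), 4.16 (day 14 over 5, hypothyroid). Values of Il1rn per Il1b in C1q-high cells were 1.66 (control day 5), 0.921 (control day 14). Under this setting, Il1rn per Il1b in C1q-low MHC II-high cells was 0.0714 (control day 5), 0.0900 (hypothyroid day 5), 0.226 (control day 14). There, the percentage of genes past 2-fold between diets was 15.4 (FAP-like day 0), 7.42 (FAP-like day 5), 6.32 (FAP-like day 14), 6.32 (C1q-high day 14), 5.76 (C1q-low MHC II-high day 5). With the cell richest in the gene left out of each library, Il1b in C1q-high cells was 2.28 (diets at day 5), 8.73 (diets at day 14), 0.454 (day 14 over 5, control). Values of Il1b in C1q-low MHC II-high cells were 0.727 (diets at day 14), 0.444 (day 14 over 5, control), 0.247 (day 14 over 5, hypothyroid). Under this setting, Il1rn in C1q-high cells was 3.51 (diets at day 5). There, Il1rn in C1q-low MHC II-high cells was 1.41 (diets at day 14), 0.874 (day 14 over 5, control), 0.578 (day 14 over 5, hypothyroid, direction turned). For Il33 in FAP-like cells the values were 0.732 (diets at day 0), 1.45 (day 5 over 0, hypothyroid). Values of Il1rn per Il1b in C1q-high cells were 3.83 (control day 14). Under this setting, Il1rn per Il1b in C1q-low MHC II-high cells was 0.1101 (control day 14), 0.212 (hypothyroid day 14). Without cells above the 95th percentile of UMIs of their library, Il1b in C1q-high cells was 2.14 (day 14 over 5, hypothyroid). For Il1b in C1q-low MHC II-high cells the values were 2.66 (diets at day 14), 0.993 (day 14 over 5, hypothyroid). Values of Il1rn in C1q-high cells were 1.64 (diets at day 14), 0.604 (day 14 over 5, hypothyroid). Under this setting, Il1rn in C1q-low MHC II-high cells was 5.33 (diets at day 14), 3.17 (day 14 over 5, hypothyroid). There, Il33 in FAP-like cells was 1.88 (diets at day 5), 1.28 (day 5 over 0, hypothyroid), 1.61 (day 14 over 5, control), 1.73 (day 14 over 5, hypothyroid). For Irak3 in FAP-like cells the values were 0.556 (diets at day 5), 0.217 (day 5 over 0, control), 3.27 (day 14 over 5, control). With the mean of each cell's CPM in place of summed UMIs, Il1b in C1q-high cells was 1.54 (day 14 over 5, hypothyroid). Under this setting, Il1b in C1q-low MHC II-high cells was 1.11 (diets at day 5), 0.605 (day 14 over 5, hypothyroid). There, Il1rn in C1q-high cells was 3.92 (diets at day 5). For Il33 in FAP-like cells the values were 1.004 (diets at day 0, direction turned), 1.99 (diets at day 5), 2.17 (diets at day 14), 1.26 (day 5 over 0, hypothyroid). Values of Il1rap in FAP-like cells were 0.843 (diets at day 14), 1.51 (day 14 over 5, hypothyroid). Under this setting, Irak3 in FAP-like cells was 1.09 (diets at day 14), 0.254 (day 5 over 0, control), 0.219 (day 5 over 0, hypothyroid), 2.81 (day 14 over 5, control), 4.40 (day 14 over 5, hypothyroid). There, Il1rn per Il1b in C1q-high cells was 1.005 (control day 5), 2.56 (hypothyroid day 5), 0.937 (hypothyroid day 14). For Il1rn per Il1b in C1q-low MHC II-high cells the values were 0.131 (hypothyroid day 5). With a minimum of 100 UMIs, the percentage of genes past 2-fold between diets was 3.90 (FAP-like day 0), 5.68 (FAP-like day 14), 9.30 (C1q-high day 5), 9.53 (C1q-high day 14). With each cell's smallest value taken as 1 UMI, Il1b in C1q-low MHC II-high cells was 1.61 (diets at day 14), 0.607 (day 14 over 5, hypothyroid). There, Il33 in FAP-like cells was 1.81 (diets at day 5), 2.20 (diets at day 14). For Il1rn per Il1b in C1q-high cells the values were 1.55 (control day 14), 0.591 (hypothyroid day 14). Values of Il1rn per Il1b in C1q-low MHC II-high cells were 0.211 (hypothyroid day 14). With a stricter gate margin of 0.25, Il1b in C1q-high cells was 2.07 (day 14 over 5, hypothyroid). There, Il1rn in C1q-high cells was 1.72 (diets at day 14). For Il33 in FAP-like cells the values were 1.04 (diets at day 0, direction turned), 1.002 (day 5 over 0, hypothyroid). Values of Irak3 in FAP-like cells were 0.157 (day 5 over 0, hypothyroid). Under this setting, Il1rn per Il1b in C1q-high cells was 2.36 (hypothyroid day 5). In cells thinned to 1000 UMIs, Il1b in C1q-high cells was 1.30 (diets at day 5), 0.434 (day 14 over 5, control), 1.56 (day 14 over 5, hypothyroid). For Il1b in C1q-low MHC II-high cells the values were 1.15 (diets at day 5). Values of Il1rn in C1q-high cells were 2.58 (diets at day 5), 0.600 (day 14 over 5, hypothyroid). Under this setting, Il33 in FAP-like cells was 1.93 (diets at day 5), 2.13 (diets at day 14). There, Il1r1 in FAP-like cells was 1.03 (diets at day 5), 1.55 (diets at day 14), 1.07 (day 5 over 0, hypothyroid), 1.48 (day 14 over 5, hypothyroid). For Il1rap in FAP-like cells the values were 1 (diets at day 5), 0.468 (day 14 over 5, hypothyroid). Values of Irak3 in FAP-like cells were 1.03 (diets at day 14), 0.246 (day 5 over 0, control), 0.185 (day 5 over 0, hypothyroid), 2.61 (day 14 over 5, control), 4.04 (day 14 over 5, hypothyroid). Under this setting, Il1rn per Il1b in C1q-high cells was 0.867 (hypothyroid day 14). There, Il1rn per Il1b in C1q-low MHC II-high cells was 0.121 (hypothyroid day 5), 0.222 (control day 14). Of 40 levels recomputed with graph clusters named from the same markers, 1 moved. Depth limits Il1rap in all gates, and the C1q-low MHC II-high group at 14 dpi, which held 28 control and 9 hypothyroid cells.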
